A study of Homo sapiens with 42 samples.

Results

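NODAL, LEFTY1, LEFTY2, INHBA, GDF3, BMP2, BMP4, BMP7, NOG and CER1 are 10 genes of Nodal and bone morphogenetic protein (BMP) signalling. They were taken by name from the 20033 protein-coding genes of GENCODE release 44 on hg38, and each was examined over its annotated gene body and over its promoter, the window from 1500 bp before to 1500 bp after the canonical transcript's start site (TSS). The study asked where DPPA2 and DPPA4, proteins of the early embryo and embryonic stem cells, sit in non-small cell lung cancer cells and what happens to chromatin when they are switched on, by chromatin immunoprecipitation sequencing (ChIP-seq). It deposited peaks of 38 libraries, with 4 input libraries behind them. In parental NCI-H661, labelled as lung large cell carcinoma and left untreated, DPPA2 and DPPA4 are expressed from their own genes, and 18 libraries were made: single ones for the factors KDM2A and SUZ12, and pairs for DPPA4 and DPPA2 and for the histone marks H2AK119ub, H3K27ac, H3K4me1, H3K9me3, H3K36me2 and H3K36me3. NCI-H1299, labelled as lung adenocarcinoma, carried stably integrated, doxycycline-inducible FLAG-DPPA2 and V5-DPPA4 in every sample. These cells received water (CTRL) or 2 µg/mL doxycycline (DOX) for 7 days, and all of those marks but H3K36me2 were profiled with 2 replicates per condition (20 libraries).

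Both NCI-H1299 groups hold the transgenes, so CTRL is an uninduced state and not a parental line, and no sample received doxycycline without them. Whether replicates are separate cultures is not in the labels, and p-values here measure only the spread between these libraries, which may be technical. Filtered lists held 30041 to 127865 islands (broad enriched regions called by EPIC2) and 0.488 to 6.96 M island reads per NCI-H661 library, against 12301 to 103384 islands and 0.138 to 3.66 M reads in NCI-H1299. These are reads inside islands and not sequencing depth. NCI-H1299 inputs were shallow, at 1.05 reads per kb for CTRL and 1.53 for DOX. Cell line, cell number per ChIP and input therefore cannot be told apart in any comparison of the lines. As a check of the labels, H3K27ac was called at the promoters of NKX2-1, EPCAM, KRT8 and VIM in NCI-H661 and of VIM in NCI-H1299 CTRL and DOX. In NCI-H1299, NKX2-1 and EPCAM had it in the first DOX library only. No library had H3K27ac at the lung secretory genes SFTPC, NAPSA or SCGB1A1 or at CDH1, and SFTPB had it in 1 NCI-H661 library. NCI-H661 also had it at PECAM1 and COL1A1, genes usual in endothelial cells and fibroblasts, while the leukocyte genes PTPRC and CD3E had none in any library.

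Nodal and the BMPs are secreted ligands of the TGFβ superfamily. Nodal, Activin and their relatives signal through SMAD2 and SMAD3, BMPs through SMAD1, SMAD5 and SMAD9, and both arms are restrained by secreted inhibitors, many of them targets of the pathway that they restrain. In pluripotent cells NODAL, LEFTY1, LEFTY2 and GDF3 are active, whereas BMP and NOG promoters are classic bivalent genes, held under Polycomb until differentiation. Polycomb repressive complex 2, of which SUZ12 is a subunit, sets H3K27me3, and Polycomb repressive complex 1 sets H2AK119ub. H3K27ac marks active promoters and enhancers, H3K4me1 enhancers, H3K36me2 mostly intergenic and genic domains, H3K36me3 transcribed gene bodies and H3K9me3 heterochromatin.

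DPPA2 and DPPA4 are known to prefer CpG-rich DNA, so base composition was described first. Of all promoters 72.9% held a CpG island, and of the members 6 of 10 did (NODAL, LEFTY1, BMP2, BMP4, BMP7 and NOG). Promoter CpGs ran from 17 at INHBA and 22 at CER1 through 40 at GDF3, 84 at LEFTY2, 87 at LEFTY1, 116 at BMP4 and 154 at NODAL to 221 at BMP7, 228 at BMP2 and 247 at NOG, with a median of 115.0 over all promoters. The 250 bases just upstream of a RefSeq start (GRCh38.p14, 5 of 10 members have an entry) are printed for 4 members, to show starts with few and with many CpGs. NODAL is bound by DPPA2/4 in the results below and the other 3 are not. All lie on the minus strand and CpGs are in capitals. NODAL lies at chr10:70441682-70441931, INHBA at chr7:41703091-41703340, GDF3 at chr12:7695776-7696025, and the BMP4 stretch at chr14:53955051-53955300 belongs to an alternative start inside the gene.
NODAL: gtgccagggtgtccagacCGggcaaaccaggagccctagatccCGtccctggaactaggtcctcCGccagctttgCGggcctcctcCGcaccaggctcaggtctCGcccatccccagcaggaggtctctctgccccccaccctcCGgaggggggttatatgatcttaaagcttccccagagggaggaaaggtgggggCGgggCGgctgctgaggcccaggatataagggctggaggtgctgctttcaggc
BMP4: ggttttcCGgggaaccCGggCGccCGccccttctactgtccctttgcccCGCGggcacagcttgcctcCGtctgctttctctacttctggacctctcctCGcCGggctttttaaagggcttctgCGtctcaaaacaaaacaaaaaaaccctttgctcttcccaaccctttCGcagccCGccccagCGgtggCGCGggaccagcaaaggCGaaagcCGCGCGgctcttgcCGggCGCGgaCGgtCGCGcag
INHBA: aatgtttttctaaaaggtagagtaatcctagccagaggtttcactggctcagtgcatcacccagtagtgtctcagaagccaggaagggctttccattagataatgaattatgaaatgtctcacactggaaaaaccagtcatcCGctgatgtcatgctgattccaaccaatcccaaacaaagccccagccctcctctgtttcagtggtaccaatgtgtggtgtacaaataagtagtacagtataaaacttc
GDF3: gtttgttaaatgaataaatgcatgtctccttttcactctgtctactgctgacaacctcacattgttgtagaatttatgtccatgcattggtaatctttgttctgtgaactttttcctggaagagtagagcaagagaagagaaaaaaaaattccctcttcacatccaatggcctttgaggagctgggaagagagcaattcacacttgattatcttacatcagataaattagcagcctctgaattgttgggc
The NODAL stretch held 9 CpGs and was touched by narrow peaks of 1 DPPA2 and 1 DPPA4 library. The BMP4 stretch held 25 CpGs and lay under peaks of SUZ12 and of 1 DPPA2 library. INHBA held 1 CpG and GDF3 held 0, with no DPPA2, DPPA4 or SUZ12 peak on either stretch. The median over the 35116 RefSeq promoters was 11 CpGs.

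DPPA2/4 sat at 5 of the 10 promoters in NCI-H661: NODAL, LEFTY1, LEFTY2, BMP7 and NOG. A promoter was called bound where narrow peaks of both DPPA2 and both DPPA4 libraries overlapped by more than 25% of each peak, and 26.3% of all promoters and 35.0% of CpG-island promoters met this. Of 43 other genes of the pathway 19 (44.2%) did. The members' share lay above that of all promoters, but with 10 genes no test was made of it.

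NODAL, the morphogen itself, had its consensus peak at chr10:70440411-70441818, from −137 to 1270 bp relative to the TSS, over the first exon. Peak fold enrichment over input was 13.8 and 5.09 in the DPPA2 libraries and 6.0 and 5.32 in the DPPA4 libraries. LEFTY1 and LEFTY2, secreted inhibitors of Nodal encoded 52.1 kb apart, had their consensus peaks inside the gene. The LEFTY1 peak (chr1:225887323-225888466) lay 680 to 1823 bp downstream of the TSS, with DPPA2 folds of 9.73 and 4.86 and DPPA4 folds of 5.0 and 5.67. The LEFTY2 peak (chr1:225939066-225940318) lay 902 to 2154 bp downstream, with DPPA2 folds of 14.7 and 4.71 and DPPA4 folds of 7.36 and 7.11. This peak runs past the promoter window, inside which the second DPPA4 library had a highest fold of 3.48 (10.7 percentile of its peaks). Further narrow peaks lay nearer the start without reaching the consensus. At LEFTY1 there was 1, in a DPPA4 library, at 228 to 374 bp. At LEFTY2 both DPPA2 libraries had one, at 74 to 325 and 23 to 438 bp, and upstream 1 DPPA2 library had one at −454 to −187 bp and 1 DPPA4 library at −409 to −263 bp. The 2 genes are near copies: their transcripts were 96.4% identical over 1203 aligned columns, and 7.93% of the 50-base words of the LEFTY1 promoter recurred in that of LEFTY2. Over the canonical transcript spans, where the consensus peaks lie, 19.2% of LEFTY1 words and 11.8% of LEFTY2 words were shared. Reads there cannot be assigned to one gene with full certainty.

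BMP7, a BMP ligand of kidney, eye and limb, had the strongest binding of the members. Its consensus peak (chr20:57263055-57267546) was 4492 bp wide, and its DPPA2 folds (22.8 and 8.95) and DPPA4 folds (10.7 and 7.92) stood at or above the 92.3 percentile of each library's peaks. NOG, which encodes the BMP antagonist Noggin in a single exon, was bound from −764 to 1514 bp relative to the TSS (chr17:56592935-56595213), with DPPA2 folds of 16.3 and 7.47 and DPPA4 folds of 7.66 and 4.84. At all 5 genes the first DPPA2 library gave the highest fold. Folds are therefore compared only within a library. With 50% overlap asked for, 2 members (LEFTY2 and NOG) were bound, against 11.9% of all promoters. Within 500 bp of the TSS 3 were (NODAL, BMP7 and NOG), against 24.8%.

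The BMP ligand genes BMP2 and BMP4, whose promoters hold a CpG island, fell short of the call. BMP2 stood at the 94.5 percentile of promoter CpGs and BMP4 at the 50.5. BMP2, known for bone and heart development, had a narrow peak in 1 DPPA2 library (fold 8.1) and in no other, although EPIC2 islands covered its start in all 4, with 65 and 37 reads for DPPA2 and 29 and 57 for DPPA4. BMP4, a mesoderm inducer, had promoter peaks in 1 DPPA2 and 1 DPPA4 library. Both DPPA4 libraries also had a peak further in, at 2500 to 2975 and 2625 to 3071 bp downstream of the canonical TSS, in the stretch of the alternative starts. INHBA, which encodes the subunit of Activin A, the Nodal relative GDF3 and the Nodal and BMP antagonist gene CER1 had no DPPA2 or DPPA4 peak at the promoter. The last 3 are, with LEFTY2, the members without a CpG island, and 1 of these 4 promoters was bound, where 2.98% of all promoters without a CpG island were. The bound one is LEFTY2, whose consensus peak runs past the promoter window and held 77 CpGs in 1253 bp at 66.5% GC.

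**Figure D1:**
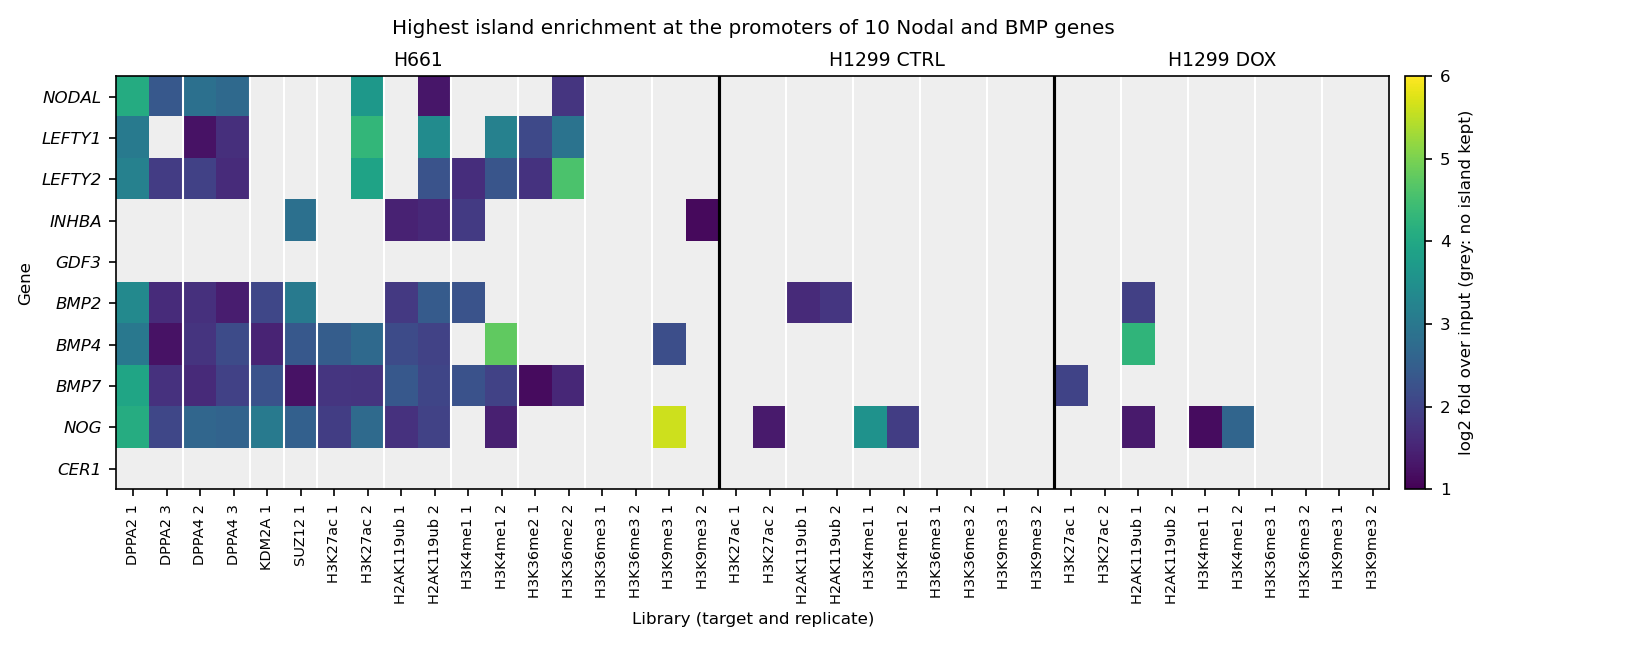
Heat map of the highest log2 fold enrichment over input among EPIC2 islands kept at each member's promoter (rows) in each of the 38 libraries (columns, target and replicate number), in NCI-H661, NCI-H1299 CTRL and NCI-H1299 DOX. Grey cells had no kept island, and GDF3 and CER1 are grey throughout while most coloured cells lie in NCI-H661.

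Polycomb components marked a partly different set of members. SUZ12 peaks, from 1 library, lay at INHBA, BMP2, BMP4, BMP7 and NOG (5 of 10, against 15.6% of all promoters and 18 of 43 other pathway genes). H2AK119ub islands in both libraries were called at the same 5 genes (24.3% of all promoters, 24 of 43 pathway genes), and both features together were at 11.8% of all promoters. NODAL, LEFTY1, LEFTY2, GDF3 and CER1 had neither call. The sole island over CER1 in any library was a SUZ12 island of 30 reads, 1833 to 2832 bp downstream of its start, and GDF3 had 0 islands in NCI-H661. BMP7 and NOG were the members with both DPPA2/4 and SUZ12, a pairing found at 3.95% of all promoters.

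The BMP2 promoter had a SUZ12 fold of 8.08 and H2AK119ub islands of 26 and 53 reads. At BMP4, SUZ12 spanned a single island of 525 reads from −1475 to 6224 bp relative to the TSS, and H2AK119ub islands at the promoter held 59 and 203 reads. At NOG, the SUZ12 fold was 8.08 as well, with H2AK119ub islands of 32 and 58 reads. BMP7 had the weakest SUZ12 peak of these genes (fold 4.05, 25.4 percentile of that library's peaks) beside H2AK119ub islands of 173 and 531 reads in total. INHBA carried SUZ12 and H2AK119ub although its promoter is among the most CpG-poor (3.59 percentile). Within 500 bp of the start it had no H2AK119ub call. There, H2AK119ub lay on either side of the start, with 101 reads in the first and 333 in the second library, and the SUZ12 narrow peak nearest the start on the downstream side began 910 bp in. KDM2A, which binds unmethylated CpGs, had a narrow peak at NOG alone among the members (fold 5.24, 1 library), against 10.5% of all promoters.

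H3K27ac was called at 3 of the 10 promoters in NCI-H661, BMP4, BMP7 and NOG, below the 58.1% of all promoters and 29 of 43 other pathway genes. These 3 promoters were also SUZ12 positive, a combination seen at 3.54% of all promoters, and H2AK119ub positive, as were 12.7%. BMP7 and NOG had DPPA2/4 besides H3K27ac and H2AK119ub, which 8.5% of all promoters did. Island reads at the promoter were 92 and 229 at BMP4, 67 and 97 at BMP7 and 27 and 146 at NOG, so the second library was higher each time. NODAL, LEFTY1 and LEFTY2 had H3K27ac in the second library only, with 38, 97 and 101 reads, and likewise H2AK119ub, with 42, 137 and 47 reads. The second libraries were deeper, by 1.74 times for H3K27ac and 2.0 times for H2AK119ub relative to input. Of all promoters, 10.0% and 17.0% were called in the second library alone. Whether depth accounts for this difference at the Nodal genes was not tested. In both libraries, the nearest shared H3K27ac to LEFTY2 lay 3.68 kb from its start, and that to LEFTY1 5.05 kb. For NODAL the distance was 16.8 kb, and for GDF3, CER1, INHBA and BMP2 it ran from 55.2 to 760 kb. The members' median was 10.9 kb, against 0.087 kb for all promoters.

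**Figure D2:**
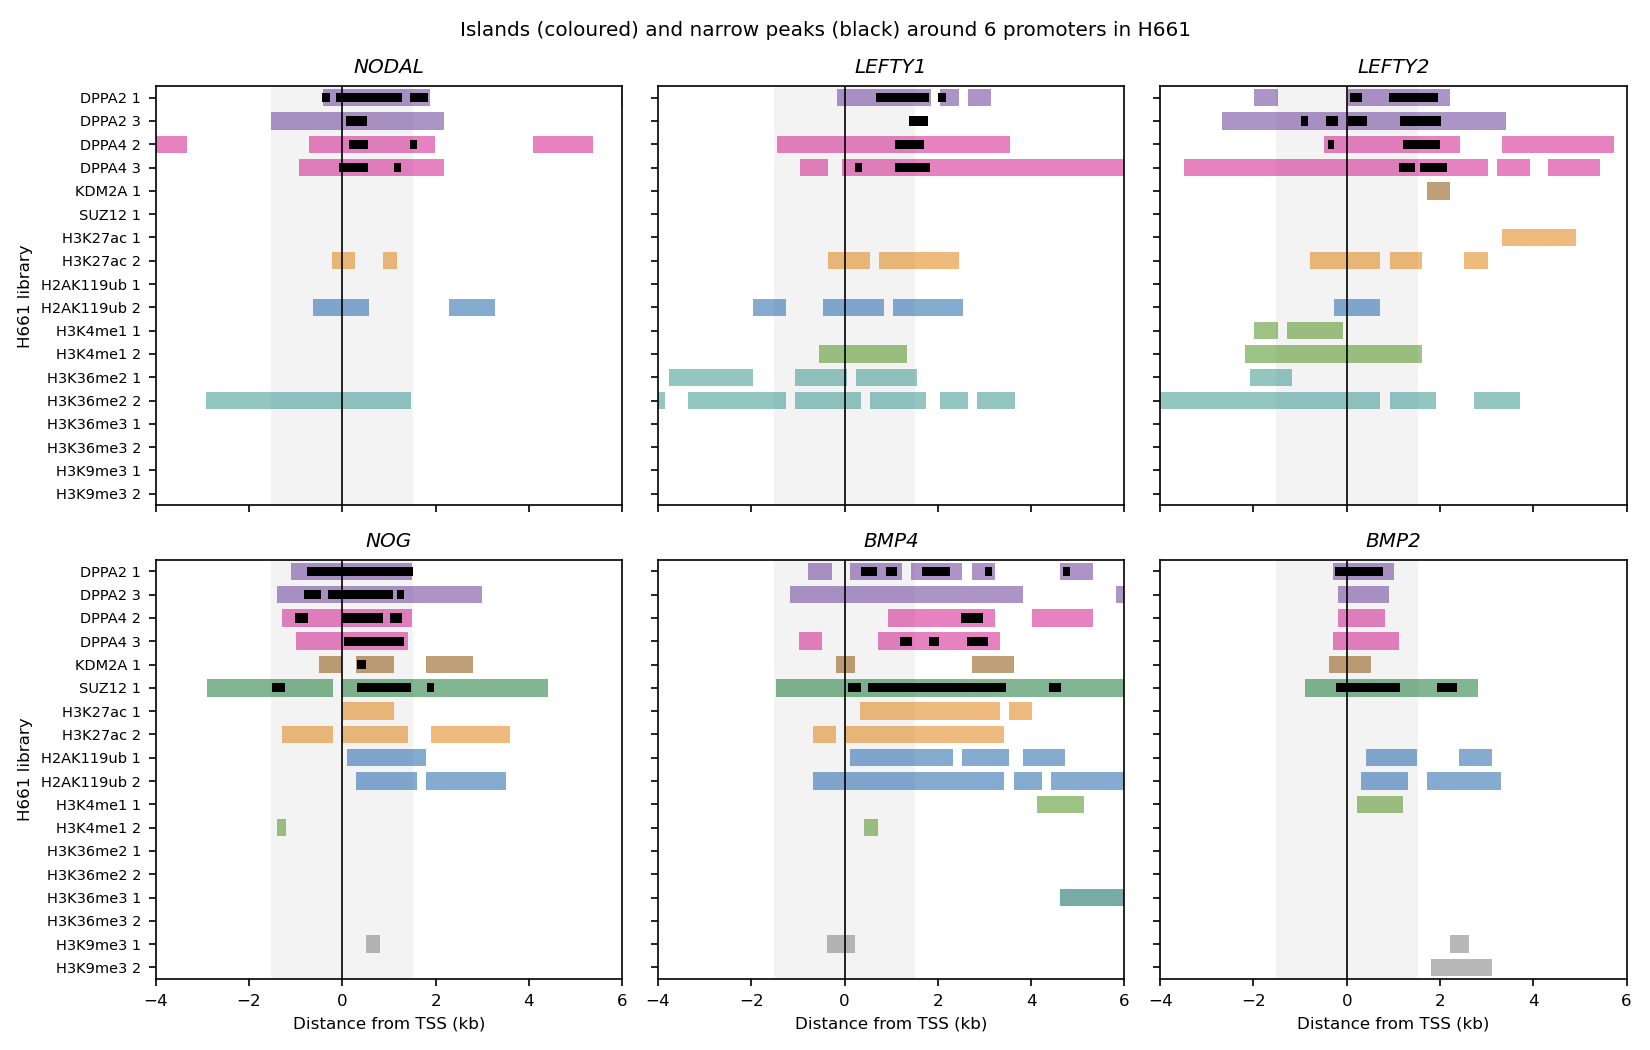
Positions of EPIC2 islands (coloured, 1 row per NCI-H661 library) and narrow peaks (black) relative to the TSS in kb at 6 members, with the promoter window shaded. DPPA2 and DPPA4 peaks lie over the NODAL start and downstream of the LEFTY1 start, the nearest at 228 to 374 bp, SUZ12 is seen at NOG, BMP4 and BMP2, and H3K27ac is in the second library alone at the NODAL and LEFTY1 starts.

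H3K36me2 was called at 3 promoters, LEFTY1, LEFTY2 and BMP7, where 5.49% of all promoters and 1 of 43 other pathway genes (GDF5, a ligand of joint formation) had it. Those 3 members are also bound by DPPA2/4, a pairing at 1.73% of all promoters and at 0 of the other pathway genes. Promoter island reads were 68 and 178 at LEFTY1, 30 and 245 at LEFTY2 and 50 and 185 at BMP7, and NODAL had an island of 118 reads in the second library only. H3K36me2 covered 53.8% and 78.9% of the annotated LEFTY1 gene body, at the 99.7 and 97.6 percentile of all genes. Coverage of the LEFTY2 body was 0.0% and 60.2%. The annotated LEFTY1 body spans 25.1 kb, whereas its canonical transcript spans 2865 bp. Most of the LEFTY1 body, and most of the kept H3K36me2 islands over it, lay upstream of the canonical TSS. Another protein-coding gene without a symbol overlaps LEFTY1 on the same strand, so these islands cannot be given to LEFTY1 alone. Genes of long noncoding RNAs on the opposite strand likewise lie over the promoters of INHBA (INHBA-AS1), BMP4 and BMP7, and promoter marks there cannot be given to the member alone. H3K4me1 was called at LEFTY2 and BMP7 (29.6% of all promoters, 13 of 43 pathway genes), and 5 more members had it in 1 library. H3K36me3 and H3K9me3 were called at 0 of the 10 promoters, against 7.17% and 4.14%. An H3K9me3 island at NOG had the highest log2 fold of any member island (5.61), but it rested on 8 reads over 0 input reads in 1 library. With a log2 fold above 2 asked of both libraries, BMP4 alone had H3K27ac (52.2% of all promoters) and BMP7 alone H2AK119ub (12.8%). At that limit LEFTY1 alone had H3K36me2 (0.904%), and 0 members had H3K4me1 (15.1%). The members' share for H2AK119ub was then not above that of all promoters.

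BMP7 held 240 of the 414 islands kept over the members in NCI-H661. Over its 97.9 kb body, H3K27ac islands covered 25.7% and 44.5%, H3K36me2 21.2% and 54.5%, H3K36me3 38.4% and 19.4%, H3K4me1 16.8% and 18.4%, and H2AK119ub 10.1% and 18.2%. Among all genes these stood at the 87.9 and 85.9 percentile for H3K27ac, 97.5 and 93.5 for H3K36me2 and 71.8 and 76.8 for H3K36me3. For H3K4me1 the percentiles were 81.3 and 84.3, and for H2AK119ub 87.1 and 76.3. BMP7 was the member with H3K36me3 over the body in both libraries, while 47.7% of all genes had it there or at the promoter. H3K36me2 covered more in the second library and H3K36me3 more in the first, so the replicates did not share an order. The input itself was dense here: input reads per kb in BMP7 islands were above the library's median island in 17 of 18 libraries, with a median ratio of 1.44, whereas other members with islands in several libraries had median ratios of 0.796 to 1.08. Copy number and enrichment cannot be told apart from these lists, although each fold is relative to the same input.

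**Figure D3:**
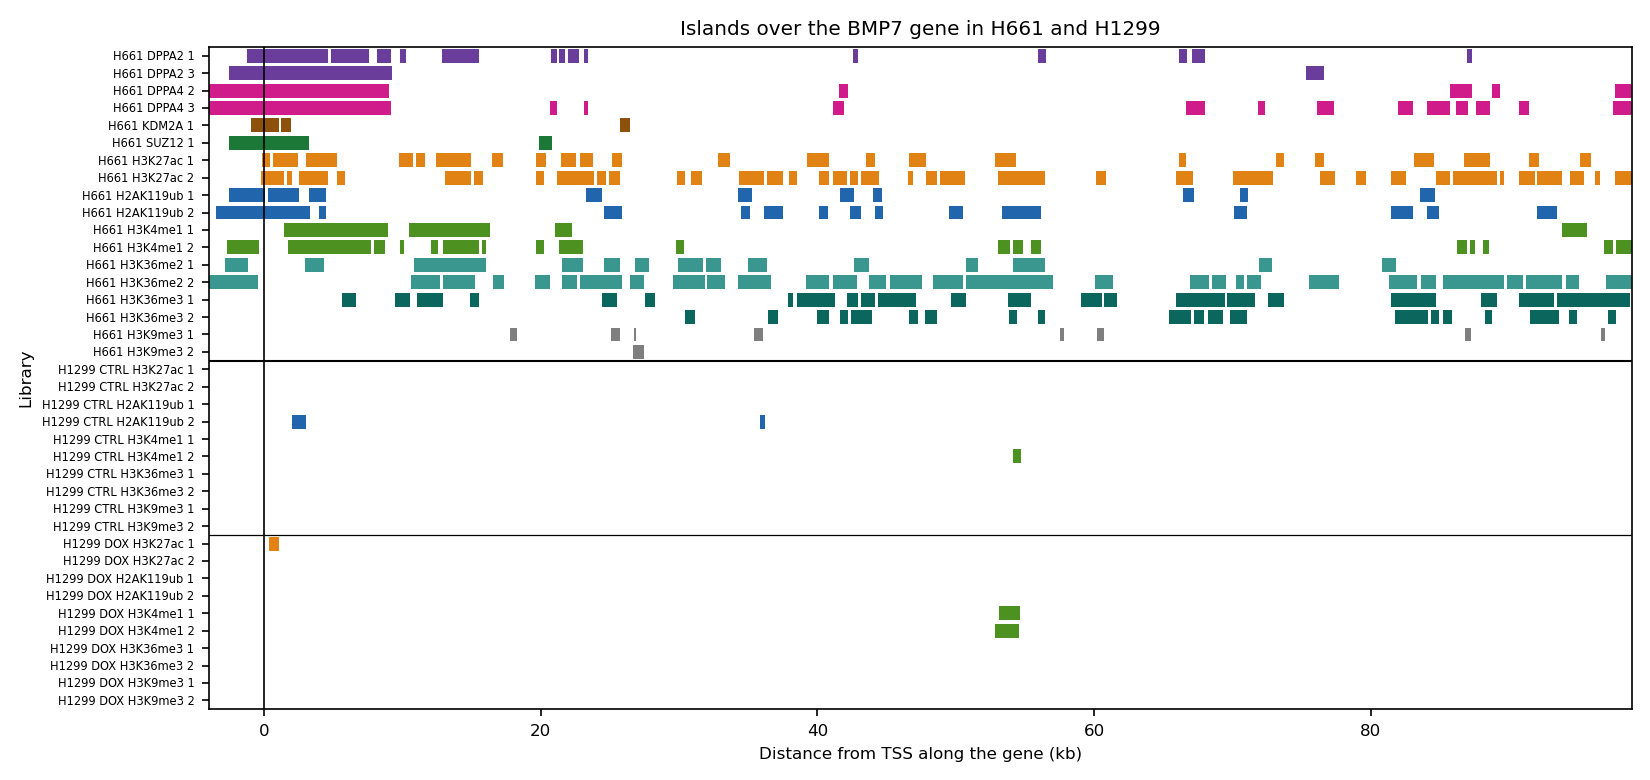
EPIC2 islands over the BMP7 gene, by distance from its TSS in kb along the gene, with 1 row per library (18 of NCI-H661, then 10 CTRL and 10 DOX of NCI-H1299). In NCI-H661 every library has islands over the gene, whereas NCI-H1299 has 3 islands in CTRL and 3 in DOX, among them H3K4me1 islands deep inside the gene.

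The members were close to empty in NCI-H1299. Over 20 libraries they held 28 kept islands of 7 to 74 reads, 14 in CTRL and 14 in DOX. The 10 NCI-H661 libraries of the same 5 marks held 234, of which BMP7 had 157. NODAL, LEFTY2 and CER1 had 0 islands, kept or not, and GDF3 had 1, of 13 reads, for H2AK119ub in the first DOX library. At INHBA, H3K4me1 islands lay some distance upstream of the start in both lines, with 38 and 38 reads in NCI-H661, 10 reads in the second CTRL and 11 reads in the second DOX library, the last 2 over 0 input reads. In CTRL, H3K27ac was called at 0 of 10 promoters (38.3% of all, 15 of 43 pathway genes) and H2AK119ub at 1, BMP2, with 13 and 16 reads (8.8% of all, 10 of 43). H3K4me1 was called at 1, NOG (37.1% of all, 19 of 43), and H3K36me3 and H3K9me3 at 0 (7.37% and 0.19%). In DOX, H3K27ac was called at 0 (51.3%, 24 of 43 pathway genes), H2AK119ub at 0 (11.6%, 14 of 43), H3K4me1 again at NOG (43.9%, 26 of 43), and H3K36me3 and H3K9me3 at 0 (9.52% and 0.165%).

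Between the lines, calls in both NCI-H661 and neither CTRL library were made for H3K27ac at BMP4 and BMP7 (12.1% of all promoters), for H2AK119ub at INHBA, BMP4, BMP7 and NOG (11.4%), for H3K4me1 at LEFTY2 and BMP7 (7.26%), and for H3K36me3 and H3K9me3 at 0 members (2.92% and 3.72%). The reverse was seen at 0 members for all 5 marks in that order (0.769%, 1.98%, 10.3%, 1.7% and 0.135%). NOG lacked a call of H3K27ac in CTRL because 1 library alone had an island, of 7 reads. No member had a region covered to at least 50% by islands in all 4 libraries of a mark, so none was tested between the lines at that coverage. With no coverage minimum, H2AK119ub in NCI-H661 relative to CTRL differed by 0.72 on the log2 scale at NOG (adjusted p = 0.478, edgeR) and by −0.36 at BMP2 (adjusted p = 0.729, edgeR). Without the first CTRL library the BMP2 difference was 0.59 (adjusted p = 0.696, edgeR), so its sign turned and neither gene passed. An absent island in NCI-H1299 means that none was called with these shallow inputs, and not that the mark is absent.

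**Figure D4:**
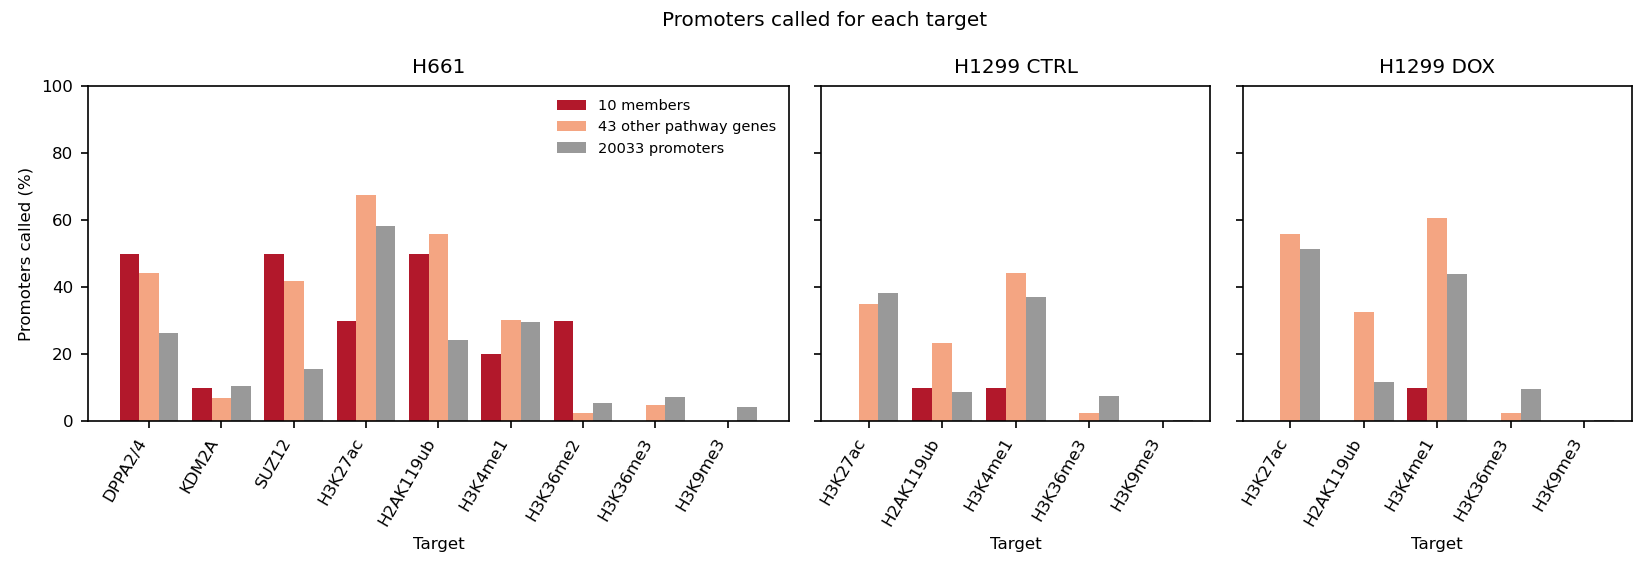
Share of promoters called (percent, axis from 0 to 100) for each target among the 10 members, 43 other pathway genes and all 20033 promoters, in NCI-H661, NCI-H1299 CTRL and NCI-H1299 DOX. Members stand above all promoters for DPPA2/4, SUZ12, H2AK119ub and H3K36me2 in NCI-H661, and have no bar for H3K27ac in NCI-H1299.

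After 7 days of DPPA2/4 induction, no member's promoter went from neither CTRL library to both DOX libraries, or from both to neither. A gain was a call in both DOX and neither CTRL library, and 0 of 10 members met it for H3K27ac (5.03% of all promoters), H2AK119ub (3.04%), H3K4me1 (3.23%), H3K36me3 (1.95%) or H3K9me3 (0.0349%). Losses, the reverse, were also 0 (0.0799%, 2.09%, 1.12%, 0.729% and 0.0948%). Single libraries did differ. BMP7 had an H3K27ac island of 14 reads just downstream of its start in the first DOX library and none in CTRL. BMP4 had an H2AK119ub island of 15 reads upstream of its start in the first DOX library of that mark, and none at its promoter in CTRL. BMP2 had H2AK119ub in both CTRL libraries (13 and 16 reads) and 1 DOX library (12 reads), so its promoter was called in CTRL and not in DOX. Deep in the BMP7 gene, an H3K4me1 island held 12 reads in the second CTRL library, 0 islands in the first, and 36 and 37 reads in DOX. These counts are small, and the first DOX H3K27ac library was the deeper of its pair (second to first depth ratio 0.536).

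NOG was the member that could be tested. An H3K4me1 region starting within its promoter and running downstream of the gene (chr17:56594901-56597700) held 61 and 81 reads in CTRL and 74 and 58 in DOX, so the groups overlapped. The log2 change in DOX was −0.24 (SE 0.244), with an adjusted p of 0.861 (edgeR quasi-likelihood test over 7093 regions, 0.0423% called higher and 0.0% lower). H2AK119ub at NOG in CTRL consisted largely of islands under the fold limit, at log2 folds of 0.76 and 0.89 in the first library and 0.69, 0.92 and 1.04 in the second. In DOX the first library had 1 kept island of 64 reads (log2 fold 1.37), and the second had 2 islands at 0.81 and 0.70. With islands of any fold allowed, NOG was thus H2AK119ub positive in both conditions.

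**Figure D5:**
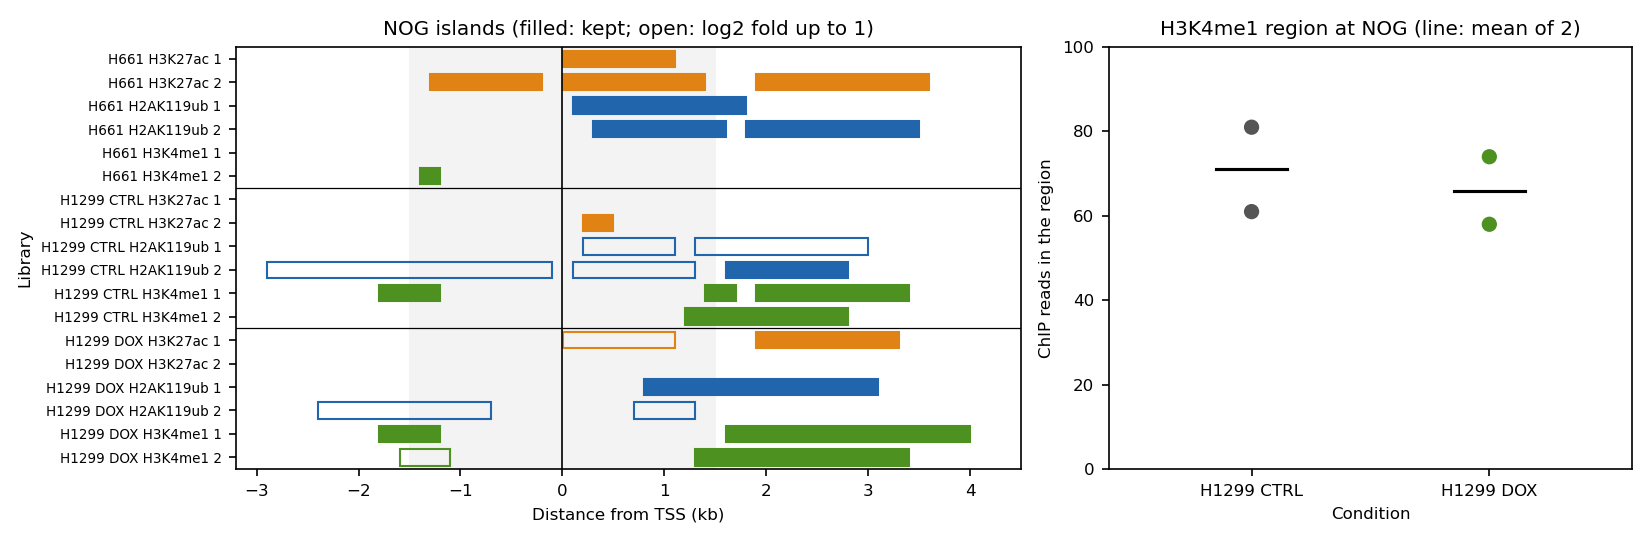
Left, H3K27ac, H2AK119ub and H3K4me1 islands at NOG by distance from the TSS in kb, 1 row per library, with filled boxes for kept islands and open boxes for log2 folds up to 1. Right, ChIP reads in the H3K4me1 region at NOG for each NCI-H1299 library, with a line at the mean of 2 replicates; CTRL points (61 and 81) and DOX points (74 and 58) overlap.

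Across the rest of the pathway, DPPA2/4 bound 7 of 12 ligand genes in NCI-H661: INHBB and INHA, which encode inhibin subunits, GDF1, GDF7, GDF11, BMP8A and BMP8B. By role, it bound 0 of 4 coreceptor, 3 of 8 receptor, 4 of 7 inhibitor, 3 of 8 SMAD and 2 of 4 target genes, against 26.3% of all promoters. H2AK119ub (24.3% of all promoters) was called at 10 ligand, 2 coreceptor, 5 receptor, 3 inhibitor, 3 SMAD and 1 target genes. H3K27ac (58.1% of all promoters) was called at 5, 1, 7, 4, 8 and 4 genes in that order, and no test was made between roles. Upon DOX the ligand gene GDF11 gained H3K27ac, and GDF7, BMP6 and the Activin receptor gene ACVR1B gained H2AK119ub. GDF1, BMP6, the coreceptor gene RGMA and the receptor gene ACVR1C gained H3K4me1. H2AK119ub was lost at GDF1, GDF5 and CHRD, and H3K4me1 at SMAD9 (CHRD and SMAD9 were chosen after their values were seen). These are differences in calls. In the region tests 0 of the pathway's regions passed upon DOX (11 for H3K27ac, 21 for H3K4me1, 9 for H3K36me3 and 1 for H3K9me3). Over all tested regions, 0 of 3427 passed for H3K27ac (189 at an unadjusted p under 0.05) and 0 of 132 for H2AK119ub (5 unadjusted). DESeq2 called 0 for all 5 marks. A region needed islands in all 4 libraries, so one present in a single condition could not enter. Scaling on shared regions also centres the changes: the median log2 change for H3K27ac was −0.0145, and 0.439 with library depth recovered from the lists. These tests therefore cannot show that H3K27ac was unchanged. Between the lines, GDF11 was higher in NCI-H661 for H3K4me1, with 68 and 67 reads in CTRL and 163 and 188 in NCI-H661 (log2 difference 1.15, adjusted p = 0.000707, edgeR), where 2.57% of regions were called higher. That call was lost without the first CTRL library (1.09, adjusted p = 0.165, edgeR), without the second (0.95, adjusted p = 0.254) and with no coverage minimum (0.82, adjusted p = 0.223), and per covered length the difference was under the size limit (0.84, adjusted p = 0.00474). SMAD3, a signal transducer of the Nodal arm chosen after its values were seen, was lower in NCI-H661 inside its gene for H3K27ac (−1.66, adjusted p = 7.42e-05, 5.62% of regions called lower) and H3K4me1 (−1.05, adjusted p = 0.000423, 2.32% called lower). Its H3K4me1 call was lost without the second CTRL library (−0.59 to −0.49 with adjusted p of 0.567 to 0.584 over 3 regions), per covered length (−0.31, adjusted p = 0.188) or the second NCI-H661 library (−0.96, under the size limit, adjusted p = 0.0287).

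Promoters whose 19 states (9 in NCI-H661, with DPPA2 and DPPA4 joined, and the 5 marks in each NCI-H1299 condition) matched a member's exactly were few for the bound genes other than NODAL. NOG matched 0 other promoters, LEFTY2 matched 2, BMP7 6 and LEFTY1 8, whereas NODAL, with DPPA2/4 as its sole call, matched 109. BMP4 matched 26, BMP2 27, and INHBA 471. GDF3 and CER1 had no call in any state and matched 3643 promoters (18.2%), including each other, BMP5 and the Nodal coreceptor genes TDGF1 and CFC1.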

How the data were processed

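ChIP-seq peak lists of 38 libraries (18 NCI-H661, 20 NCI-H1299) were used. The 4 inputs entered through the authors' calls. The authors aligned reads to hg38 and called peaks in every library separately, each against its input. Their processing notes name BWA 0.7.13, MACS2, Trim Galore 0.6.6, deepTools 3.5.0, Picard 2.6.0 and SAMtools 1.9. Each of 38 deposited EPIC2 lists gives, for every island, a log2 fold, a score, a p-value, an FDR (a q-value) and read counts of ChIP and input. Each of 6 deposited MACS2 lists gives narrow peaks with a fold enrichment ratio, a score and −log10 p and q values. The authors' folds and FDRs were used to filter peaks and were not refitted. The mouse spike-in could not be applied to peak lists. CUT&RUN data, H3K27me3 and H3K4me3 were not analysed here.

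Peaks on the 24 standard chromosomes were kept if their FDR was below 0.05 and their log2 fold above 1. Promoters counted as carrying a mark if both replicates had an island there, and KDM2A and SUZ12 with a narrow peak in the single library. CpG islands were windows of 500 bp whose GC content was 55% or more and whose ratio of observed to expected CpGs was 0.65 or more. For region tests, islands of the 4 libraries were joined, the deposited ChIP counts summed per region, and regions kept where islands covered at least 50% in every library. They were fitted with edgeR 4.0.16 (quasi-likelihood, TMM) in R 4.3.3 with Benjamini-Hochberg adjustment over all regions, and called where the adjusted p was below 0.05 and the log2 change in either direction reached 0.5 (DOX against CTRL) or 1 (NCI-H661 against CTRL). The replicate number was a block for DOX against CTRL, since the study's methods describe replication in complete batches. Deviations of same-numbered libraries correlated weakly (H3K4me1 0.0407, H3K36me3 0.0694, H2AK119ub 0.077, H3K9me3 0.105, H3K27ac 0.259). DESeq2 1.42.0 was an alternative. Promoter sequences are from RefSeq (GRCh38.p14), and no entry was used for LEFTY1, LEFTY2, BMP2, BMP7 or NOG.

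The members and the list of 43 pathway genes were chosen with earlier results of these data known. All members are named. Other pathway genes are named, up to 12 in list order, where bound, changed in a region test, or gaining or losing a call. Counts per library depend on depth, which the lists do not give.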

Additional observations from a re-analysis of the deposited data

How the results depend on the processing

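The 5 members bound by DPPA2/4 were the same without any 1 of the 4 libraries and at a log2 fold above 2. They became 2 (LEFTY2 and NOG) at 50% overlap and 3 (NODAL, BMP7 and NOG) within 500 bp of the TSS, since the consensus peaks of LEFTY1 and LEFTY2 start further in, and 6 with EPIC2 islands, where BMP2 joined. At a log2 fold above 2, members called in NCI-H661 were 1 for H3K27ac (BMP4, 52.2% of all promoters) and 1 for H2AK119ub (BMP7, 12.8%). They were 0 for H3K4me1 (15.1%) and 1 for H3K36me2 (LEFTY1, 0.904%). In NCI-H1299 they were 0 for H2AK119ub in CTRL (2.57%) and 0 for H3K4me1 in CTRL (20.8%) and DOX (24.9%). With no fold limit, H2AK119ub was called at 2 in CTRL (BMP2 and NOG, 13.4% of all promoters) and 1 in DOX (NOG, 14.8%). Within 500 bp, NCI-H661 had 4 for H2AK119ub (all but INHBA, 18.6% of all promoters), 1 for H3K4me1 (LEFTY2, 9.62%) and 1 for H3K36me2 (LEFTY1, 2.02%). NCI-H1299 had 0 for H2AK119ub in CTRL (3.8%) and 0 for H3K4me1 in CTRL (12.4%) and DOX (17.8%). Over the promoter or gene body, NCI-H661 had 5 for H3K27ac (65.2% of all genes) and 5 for H3K4me1 (50.8%). It had 1 for H3K36me3 (BMP7, 47.7%) and 3 for H3K9me3 (INHBA, BMP2 and BMP7, 22.6%). DOX had 2 for H3K4me1 (BMP7 and NOG, 58.9%). With 1 replicate left out, counts in NCI-H661 ranged from 3 to 6 for H3K27ac (58.9% and 68.1% of all promoters) and 5 to 8 for H2AK119ub (27.1% and 41.3%). They ranged from 4 to 5 for H3K4me1 (43.2% and 39.7%) and 1 to 2 for H3K9me3 (6.19% and 9.21%). Without the first replicate NODAL, LEFTY1 and LEFTY2 joined for H3K27ac and H2AK119ub. In NCI-H1299 counts for H3K27ac ranged from 0 to 1 in CTRL (NOG, 42.8% and 45.8%) and in DOX (BMP7, 52.1% and 59.4%). For H2AK119ub in DOX they ranged from 0 to 3 (BMP2, BMP4 and NOG, 22.4% and 18.6%). The NOG H3K4me1 change ranged from −0.42 to −0.05 over 12 alternatives, with adjusted p from 0.857 to 1.0.

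The counts that follow are of called regions over the genome, and no region at a member passed in any of these fits. For DOX against CTRL without the replicate block, H3K4me1 gave 0 in place of 3 called regions, H3K36me3 3 in place of 15, H3K9me3 0 in place of 2, H3K27ac 0 and H2AK119ub 0, and the NOG change was −0.23 (adjusted p = 0.901). For the lines, the replicate block gave 289 for H3K27ac in place of 298, 0 for H2AK119ub in place of 2, 62 for H3K4me1 in place of 59, 60 for H3K36me3 in place of 65 and 0 for H3K9me3. Pairing could not be established with 2 replicates. The other DOX counts were, for H3K27ac, 12 with no coverage minimum and 2 with no fold limit; for H2AK119ub, 1 per covered length; for H3K4me1, 5 with DESeq2 size factors, 7 with no coverage minimum, and 0 with recovered depth, the DESeq2 test or covered length; for H3K36me3, 183 with no coverage minimum, 8 with recovered depth, 4 with no fold limit, 1 per covered length and 0 with DESeq2; and for H3K9me3, 1 with no coverage minimum or no fold limit and 0 with DESeq2 size factors, recovered depth, the DESeq2 test, no count filter or covered length. Recovered depth moved the median log2 change to 0.439 for H3K27ac, −0.166 for H2AK119ub and −0.138 for H3K9me3. The line counts were 1804, 313, 1791, 1665 and 81 with no coverage minimum for H3K27ac, H2AK119ub, H3K4me1, H3K36me3 and H3K9me3, and 127, 0, 4 and 4 per covered length for the first 4. Leaving out 1 library, with no block, gave for DOX 0 to 29 (H3K27ac), 0 to 0 (H2AK119ub), 0 to 19 (H3K4me1), 0 to 57 (H3K36me3) and 0 to 0 (H3K9me3), and for the lines 500 to 855, 0 to 21, 28 to 241, 34 to 566 and 0 to 6 in that order. Causes were not tested.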
